A study of Mus musculus with 8 samples.

Results

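The genes described here encode proteins of mitochondrial oxidative phosphorylation that are carried by the nuclear genome. They were chosen by symbol alone, as protein-coding genes that start with Ndufa, Ndufb, Ndufc, Ndufs, Ndufv, Uqcr, Cox4, Cox5, Cox6, Cox7, Cox8 or Atp5, or that are Sdha, Sdhb, Sdhc or Sdhd. Of the 55357 genes listed, 94 met this rule, and 88 of them had enough counts to be among the 14514 genes tested. The rule used no measured value, and nuclear subunits under other symbols are not in it. It holds 36 genes assigned to complex I, 4 to complex II, 8 to complex III, 20 to complex IV and 18 to complex V. The 18 include a second identifier of Atp5o, and the 20 include Cox7a2l, a factor of respiratory supercomplexes. The remaining 8, the Ndufaf genes, encode assembly factors of complex I that share its prefix but are not part of the finished enzyme, so they are described apart.

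Oxidative phosphorylation turns the energy of nutrients into ATP at the inner mitochondrial membrane. Complex I takes electrons from NADH and complex II takes them from succinate, ubiquinone carries them to complex III, cytochrome c carries them on to complex IV, and complex IV hands them to oxygen. Complexes I, III and IV pump protons outward as the electrons pass, and complex V, the ATP synthase, makes ATP as the protons flow back. The balance between this route and glycolysis differs between activation states of macrophages, and most subunits are nuclear genes whose proteins are imported and joined with the few encoded by mitochondrial DNA.

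The libraries came from bone marrow-derived macrophages (BMDM) of C57BL/6J wild-type mice, grown in M-CSF, the growth factor that drives marrow cells to become macrophages. The 4 So(d18:1) libraries came from BMDM given 2 μM sphingosine d18:1, the free long-chain base from which sphingolipids are built, and the 4 control libraries from BMDM given its solvent methanol, both for 6 h. The labels name no inflammatory stimulus, although the study describes the experiment as done under inflammatory stimulation. The study's figure legend gives 4 biologically independent samples. Neither the legend nor the labels say whether the replicates are separate cultures or mice, so p-values measure only the spread between these libraries. The comparison asks which transcripts differ between macrophages with and without So(d18:1).

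Polyadenylated RNA was sequenced, and between 17748397 and 26088609 counts per library fell on genes. The members together made up 0.487% to 0.504% of each control library and 0.493% to 0.544% of each So(d18:1) library. All 7 macrophage markers examined (among them Adgre1, Csf1r and Cd68) had at least 10 counts in every library, and their summed level was 30123 to 32413 CPM (counts scaled to a common library total, with TMM factors) in control and 26006 to 30868 CPM in So(d18:1) libraries. Of these markers, Cd68 and Mertk were lower and Itgam was higher with So(d18:1) at an edgeR adjusted p under 0.05. In all, 6 of the 7 had a log2 fold change below 0. The 7 neutrophil markers summed to 1416 to 1953 CPM in control and 1113 to 1267 CPM in So(d18:1) libraries. All 7 had a log2 fold change below 0, and 4 of them (S100a8, S100a9, Elane and Mpo) were lower at that threshold. Among all tested genes 3.87% were higher and 5.07% lower at it, and 50.9% had a log2 fold change above 0. The 6 markers of B and T cells summed to 2.83 to 4.22 CPM against 0.95 to 2.64 CPM, the 6 dendritic markers to 18.0 to 25.5 CPM against 16.9 to 20.6 CPM, the 5 fibroblast and endothelial markers to 19.5 to 31.0 CPM against 16.6 to 21.6 CPM, and the 4 erythroid markers to no more than 1.09 CPM in any library. No marker of these 6 lists was at 0 in every library, and the part of other cells in the members' values was not tested.

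Many nuclear genes of oxidative phosphorylation share short promoter motifs for the factors NRF1, the ETS factor GABP and YY1, so the promoters are described first. RefSeq promoters (GRCm38.p6, 250 bases before to 50 after the start) were matched for 76 of the 94 members. The NRF1 core GCATGCGC stood on either strand in 12 of them (15.8%), compared with 3.05% of all 27025 genes with a promoter and 5.93% of the 10039 that were also tested here. The YY1 motif AAGATGGCG stood in 8 (10.5%, against 1.64% and 3.61%) and the ETS motif CCGGAAG in 18 (23.7%, against 9.93% and 20.5%). At least 1 of the 3 was found in 31 members (40.8%, against 13.6% and 27.5%). These comprised 12 of 32 complex I promoters, 2 of 3 for complex II, 3 of 5 for complex III, 3 of 14 for complex IV, 7 of 15 for complex V and 4 of 7 Ndufaf promoters. The 5 stretches below show such a match in 1 gene each of complexes I, III, IV and V, and the promoter of Cox7a1, the heart and skeletal muscle form of a complex IV subunit, in which none was found. Capitals mark the matches on either strand, and each stretch ends before the annotated gene begins.
Ndufa6: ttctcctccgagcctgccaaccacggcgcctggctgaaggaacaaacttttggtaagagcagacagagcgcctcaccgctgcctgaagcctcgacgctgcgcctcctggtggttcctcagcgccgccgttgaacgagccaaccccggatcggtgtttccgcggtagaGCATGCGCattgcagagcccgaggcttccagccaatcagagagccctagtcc
Uqcr11: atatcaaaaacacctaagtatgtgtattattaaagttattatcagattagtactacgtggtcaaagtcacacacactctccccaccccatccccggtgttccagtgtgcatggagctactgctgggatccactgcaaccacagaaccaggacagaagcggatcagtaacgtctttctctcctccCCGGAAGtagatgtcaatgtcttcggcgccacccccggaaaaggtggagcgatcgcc
Cox6a1: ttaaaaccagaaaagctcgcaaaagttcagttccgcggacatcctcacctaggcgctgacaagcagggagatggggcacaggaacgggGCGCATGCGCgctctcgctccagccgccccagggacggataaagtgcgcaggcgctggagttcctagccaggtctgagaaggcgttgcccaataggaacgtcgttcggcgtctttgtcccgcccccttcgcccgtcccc
Atp5e: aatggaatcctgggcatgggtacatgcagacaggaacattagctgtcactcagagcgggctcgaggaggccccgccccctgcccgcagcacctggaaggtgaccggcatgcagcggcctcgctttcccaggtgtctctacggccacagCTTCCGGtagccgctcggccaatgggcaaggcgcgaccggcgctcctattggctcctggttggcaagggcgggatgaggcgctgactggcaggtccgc
Cox7a1: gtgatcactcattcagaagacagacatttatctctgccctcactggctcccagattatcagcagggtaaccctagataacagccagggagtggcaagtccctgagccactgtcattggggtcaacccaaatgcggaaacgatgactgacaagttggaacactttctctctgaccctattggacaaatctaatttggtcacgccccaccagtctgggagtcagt
Ndufa6 (chr15:82354323-82354541, minus strand) and Cox6a1 (chr5:115348982-115349208, minus strand) carry the NRF1 core, and in Cox6a1 2 matches, 1 on each strand, overlap in a palindrome. Uqcr11 (chr10:80406831-80407071, minus strand) and Atp5e (chr2:174464106-174464351, minus strand) carry the ETS motif, in Atp5e on the opposite strand. Cox6a1 also holds an ETS match and Uqcr11 an NRF1 core in their full promoters, outside the stretches shown. Cox7a1 lies at chr7:30183921-30184143 on the plus strand. No promoter was matched for Atp5a1, Atp5mpl, the second identifier of Atp5o, Cox4i1, Cox4i2, Cox6a2, Cox6c, Cox8c, Ndufa2, Ndufa4l2, Ndufaf6, Ndufb9, Ndufs1, Sdhc, Uqcrb, Uqcrc2 and Uqcrq. A match describes letters and is not evidence of binding. The median log2 fold change was 0.062 in the 31 tested members with a match and 0.058 in the 43 without.

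The subunit transcripts were among the better expressed in these macrophages. The median level of the 88 tested members was 24.8 RPKM (CPM per kilobase of the gene's exons), against 4.71 RPKM for all tested genes. Complex II had a median of 44.6 RPKM, complex III 41.5, complex IV 37.1, complex V 32.1 and complex I 20.2, whereas the Ndufaf assembly factors had a median of 2.99. The ranges of the complexes overlapped widely, from 1.21 RPKM for Ndufb2 to 156 RPKM for Cox4i1. The deposited length counts all exons of a gene together, so genes with long rare exons have low values on this scale.

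**Figure D1:**
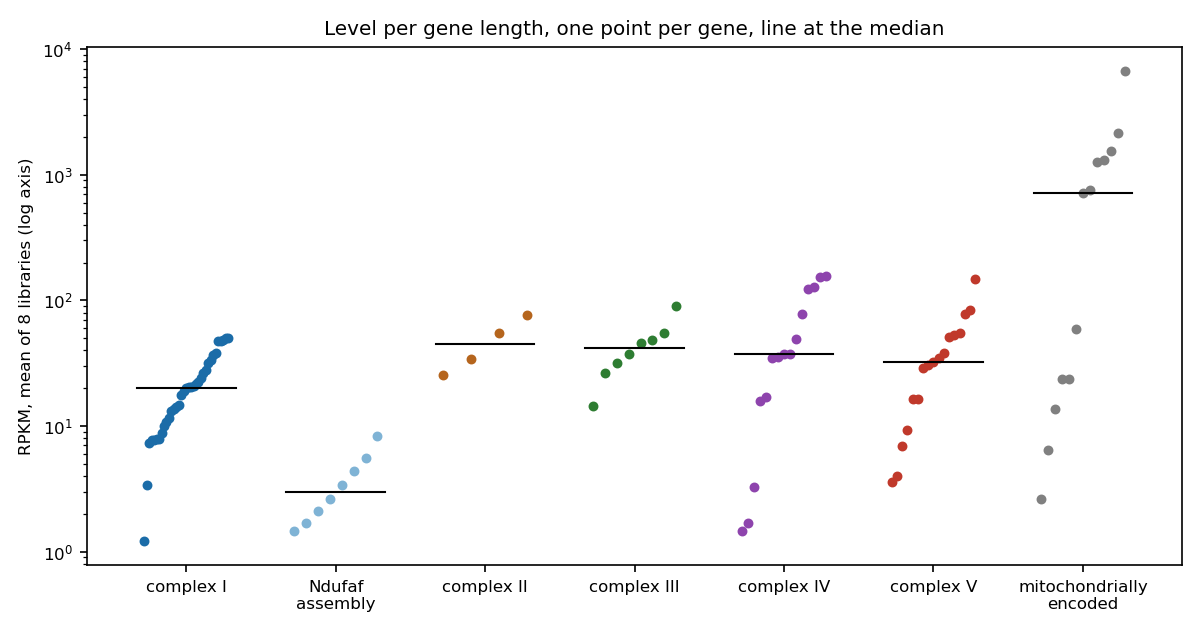
Level of the tested genes in RPKM (1 complex I gene not shown, mean of the 8 libraries, log axis), grouped by complex, with a line at each group's median. The Ndufaf assembly factors lie between 1.45 and 8.30 RPKM, below the medians of all 5 complexes, and the mitochondrially encoded subunits spread from 2.64 to 6744 RPKM.

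A few genes of each complex stood high per length. In complex I, the accessory subunits Ndufa1 and Ndufb11 both had 50.5 RPKM. Sdhd, a membrane anchor of complex II, had 76.1 RPKM, above Sdha (55.2), the subunit that oxidizes succinate. Uqcrh, the hinge protein that links cytochrome c1 to cytochrome c, led complex III with 90.6 RPKM. Cox4i1, the ubiquitous form of complex IV subunit 4, and Cox7a2l, a factor of respiratory supercomplexes, had 156 and 154 RPKM. Atp5a1, the alpha subunit of the catalytic head of ATP synthase, had 147 RPKM, followed by Atp5c1, the gamma subunit of the rotating shaft, with 83.7.

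Several complex IV subunits exist as a ubiquitous form and as a form typical of muscle, lung, testis or low oxygen, and the BMDM held almost only the ubiquitous forms. Cox4i1 had 4085 to 6889 counts per library, while Cox4i2, the form of lung and low oxygen, had 0 to 10. Cox6a1 had 969 to 1622 counts against 14 to 30 for Cox6a2, the heart and muscle form. Cox6b1 had 1520 to 2540 against 34 to 51 for Cox6b2, the testis form. Cox7a2 had 592 to 1041 and Cox7a1 23 to 58 counts. These are counts, not levels per length, and on the RPKM scale the same pairs stood at 156 and 0.256, 78.1 and 1.46, 128 and 1.68, and 37.7 and 3.26. Cox7b and Cox8a had at least 771 and 1354 counts, Cox8b had 1 to 9, and Cox7b2 and Cox8c were at 0 counts in 8 of 8 libraries. Ndufa4 had 796 to 1362 counts, and Ndufa4l2, its low-oxygen relative, was counted in 2 So(d18:1) libraries with at most 2 counts.

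**Figure D2:**
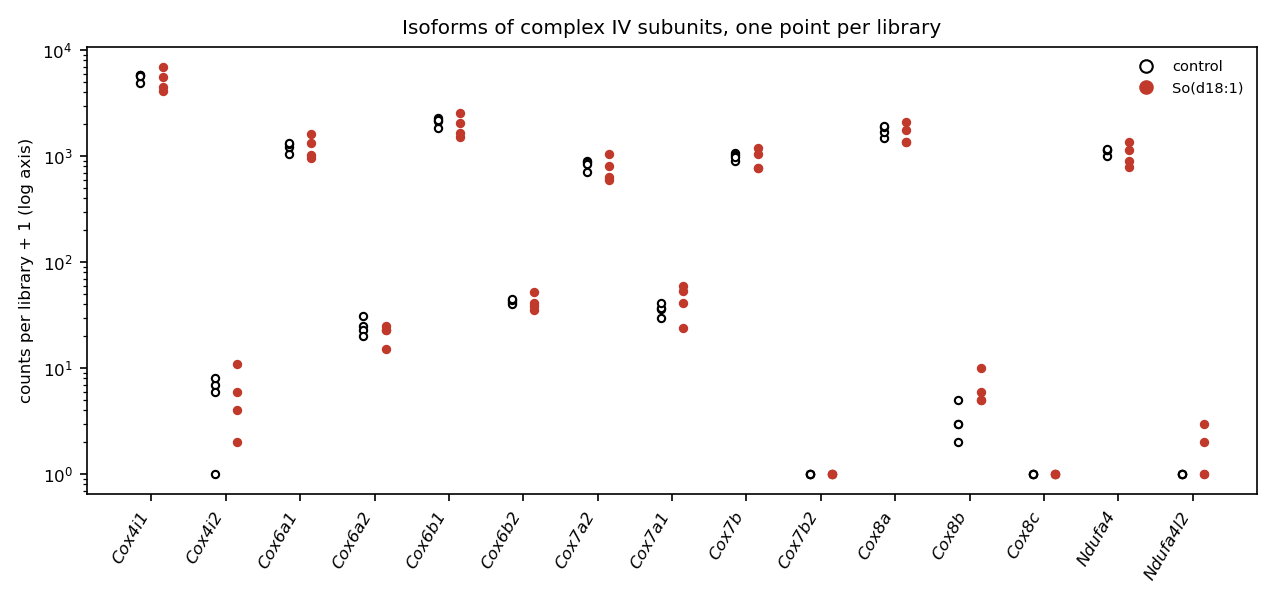
Counts per library plus 1 (log axis) for complex IV subunits with more than 1 form, open points for control and filled points for So(d18:1). In each family the ubiquitous form stands at 592 counts or more in every library, and the other forms shown stay at 58 counts or fewer. Cox7a2l, a factor of respiratory supercomplexes, is not shown.

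Cox4i2, Cox7b2, Cox8b, Cox8c, Ndufa4l2 and the second Atp5o identifier, which had 0 counts and overlaps Donson, were the 6 members without enough counts to test. In the families of which both forms could be tested, neither Cox6a2 (log2 fold change -0.07 ± 0.27 SE) nor Cox6b2 (0.11 ± 0.20) passed the threshold. Cox7a1 was at 1.68, 1.43, 1.22 and 1.65 CPM in control replicates 1 to 4 and at 1.29, 2.35, 2.08 and 2.25 CPM in So(d18:1) replicates 1 to 4. So(d18:1) replicate 1 lay within the control range and the other 3 lay above it. The log2 fold change was 0.43 ± 0.22 (SE, edgeR adjusted p = 0.254), the furthest from 0 of any member, on 23 to 58 counts per library. The 3 genes for the same c subunit of the ATP synthase ring were all expressed, Atp5g2 at 53.2, Atp5g3 at 37.9 and Atp5g1 at 4.03 RPKM.

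No member passed the test between So(d18:1) and control. By edgeR's quasi-likelihood test with Benjamini-Hochberg adjustment over all tested genes, 0 of 88 members were higher at an adjusted p under 0.05, against 3.87% of all tested genes, and 0 were lower, against 5.07%. At an unadjusted p under 0.05 there were 12, of which 11 were higher (11.4% of all tested genes were) and 1 was lower (11.9%). The 12 are 13.6% of the members, compared with 23.4% of all tested genes. DESeq2's Wald test, limma-voom and edgeR's exact test also called 0 after adjustment, with 11, 14 and 11 members at an unadjusted p under 0.05. By the rule of the study's methods, an unadjusted p under 0.05 with a fold change of at least 1.5, 0 members were called, against 3.89% of all tested genes. These are bulk libraries, in which fewer cells of a type and less RNA per cell cannot be told apart.

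The intervals show, for each gene taken alone, how large a difference could have been missed. For 70 of the 88 members (79.5%) the 95% interval of the fold change lay within 1.25-fold in either direction, compared with 51.0% of all tested genes. Within 1.5-fold lay the intervals of 85 members (96.6%, against 72.6%). The 3 exceptions were Cox7a1, whose interval reached a 1.86-fold higher level, Cox6a2, from 0.649-fold to 1.40-fold, and Ndufaf5, from 0.663-fold to 0.984-fold. Their levels were low, at 3.26, 1.46 and 2.61 RPKM.

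**Figure D3:**
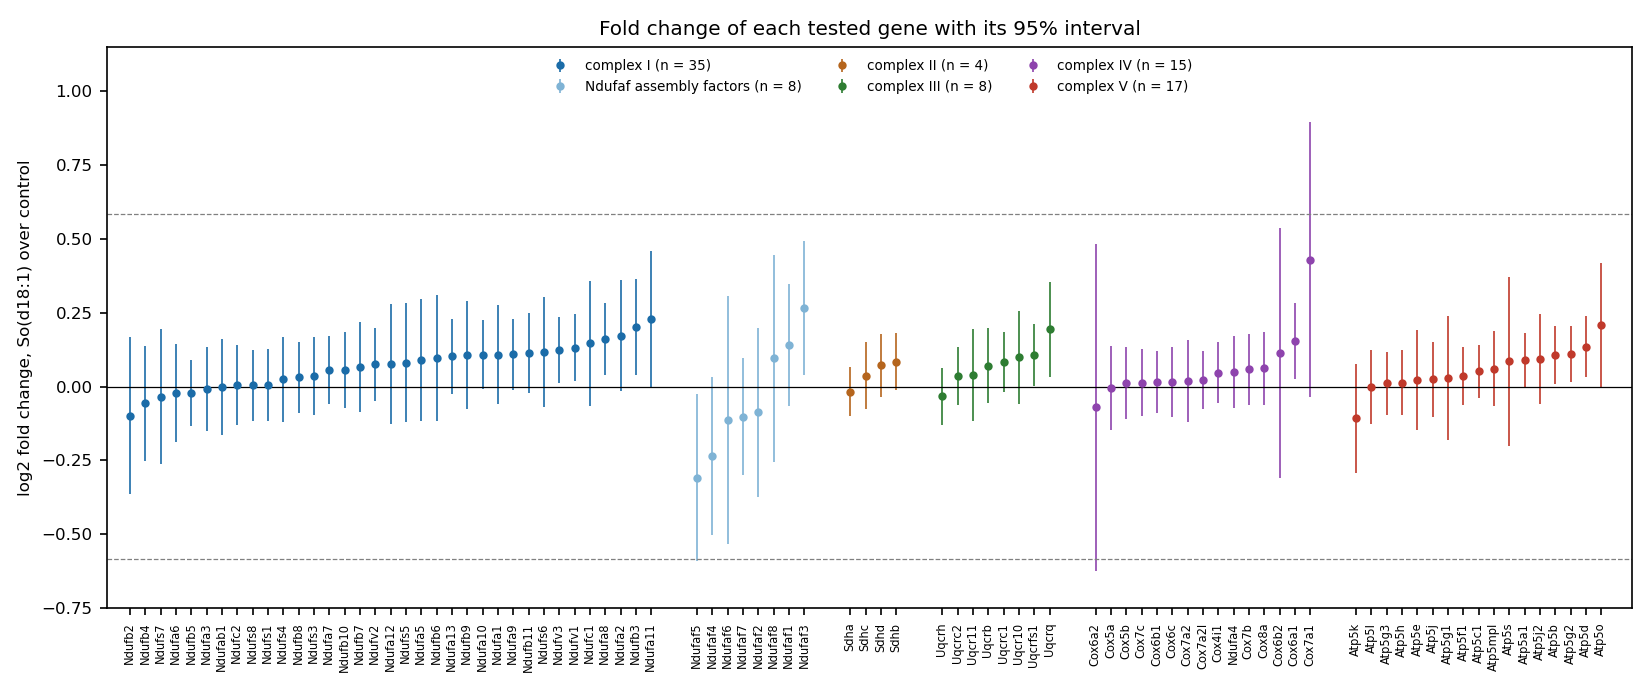
Log2 fold change (So(d18:1) over control) of the tested members with 95% intervals (1 complex I gene not shown), grouped by complex and ordered by value, with dashed lines at 1.5-fold in either direction. Most points lie above 0, and they range from -0.31 (Ndufaf5) to 0.43 (Cox7a1).

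The fold changes were small, and their median lay above 0 in each of complexes I to V. The median log2 fold change of the tested members was 0.058, with 70 above 0 and 18 below, while that of all tested genes was 0.0036. By complex the medians were 0.079 for complex I, 0.055 for complex II, 0.077 for complex III, 0.023 for complex IV and 0.051 for complex V. For the Ndufaf assembly factors the median was -0.095, with 3 above 0 and 5 below. All members were measured in the same 8 libraries, so the number of genes above 0 is not a number of independent observations.

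This lean was seen in 2 of the 4 So(d18:1) libraries. The mean level of the tested members was 5.02, 5.00, 5.07 and 5.04 log2 CPM in control replicates 1 to 4, and 5.01, 5.14, 5.02 and 5.17 log2 CPM in So(d18:1) replicates 1 to 4. So(d18:1) replicates 2 and 4 lay above every other library, and replicates 1 and 3 lay within the control range. As group means, control stood at 5.03 ± 0.034 and So(d18:1) at 5.08 ± 0.083 log2 CPM (SD, n = 4), a difference smaller than the spread of the So(d18:1) libraries. Among the So(d18:1) libraries, 79 of the 88 members (89.8%) were highest in replicate 2 or 4, against 50.8% of all tested genes. Replicate 4 held the highest value of all 8 libraries for 46 members and replicate 2 for 21.

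So(d18:1) replicates 2 and 4 were also the highest libraries in each of complexes I to V and in both lists of ribosomal proteins, but not in every housekeeping group. Complex IV, for example, deviated from its mean over all libraries by -0.072, 0.099, -0.030 and 0.11 log2 CPM in So(d18:1) replicates 1 to 4, and complex V by -0.091, 0.10, -0.030 and 0.12. The cytosolic ribosomal proteins (80 genes) deviated by -0.055, 0.069, -0.094 and 0.15, and the mitochondrial ribosomal proteins (77 genes) by -0.037, 0.061, -0.024 and 0.077. Import translocases (22 genes) deviated by -0.0086, -0.024, -0.023 and 0.047, below the 0.054 of control replicate 3, and proteasome subunits (39 genes) by -0.016, 0.016, 0.0015 and 0.059, where So(d18:1) replicate 2 lay below control replicate 3 (0.031). So(d18:1) replicates 2 and 4 also had more counts in all (21893283 and 26088609) than replicates 1 and 3 (17748397 and 19147166). Control replicates 1 to 4 had 20819860, 25114354, 23959869 and 24292703 counts, and the part of depth in this ordering was not tested. The Ndufaf assembly factors did not follow it, with -0.040, -0.083, -0.064 and 0.10. Without So(d18:1) replicates 2 and 4, the median of the members was -0.028 and 33 of 88 lay above 0. Those libraries were picked because they stood highest, and leaving out the highest libraries lowers the median by construction. With single libraries left out, the median ran from 0.021, without So(d18:1) replicate 4, to 0.089, without So(d18:1) replicate 3.

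**Figure D4:**
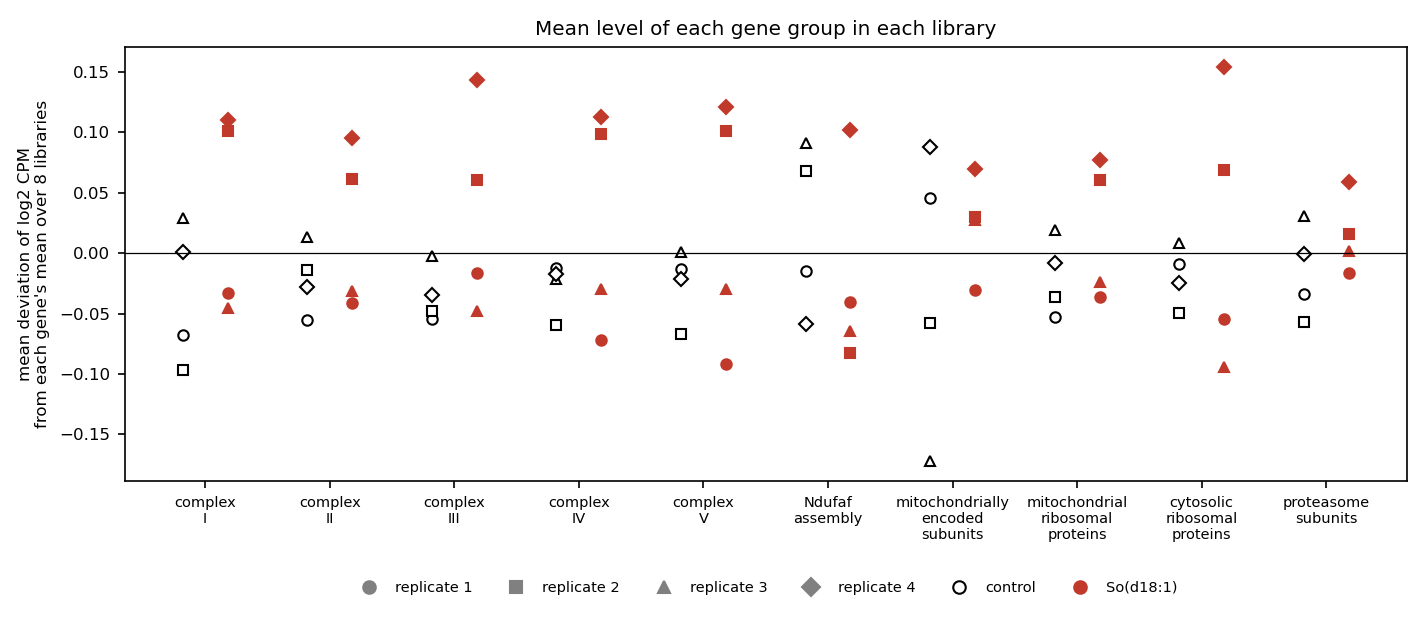
Mean deviation of log2 CPM from each gene's mean over the 8 libraries, by gene group, with a marker shape for each replicate number, open for control and filled for So(d18:1). In complexes I to V the So(d18:1) replicates 2 and 4 stand above all 6 other libraries, and so they do for the cytosolic and mitochondrial ribosomal proteins.

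Individual values are described by complex, from the entry of electrons onward. Ndufa8 (ENSMUSG00000026895, chr2:36036326-36049406, minus strand), an accessory subunit of complex I on the side facing the intermembrane space, had the smallest p of all members. Its level was 39.1, 38.3, 39.3 and 41.2 CPM in control replicates 1 to 4 and 41.6, 47.3, 41.4 and 46.0 CPM in So(d18:1) replicates 1 to 4. The groups did not overlap, but the highest control and the lowest So(d18:1) library were close together. The fold change on the log2 scale was 0.16 ± 0.058 (SE, edgeR adjusted p = 0.0934), which does not pass. Ndufb3 (ENSMUSG00000026032, chr1:58586384-58595964, plus strand), an accessory subunit of the membrane arm, was at 26.7, 20.4, 24.1 and 24.0 CPM in control and 25.1, 28.5, 28.9 and 26.7 CPM in So(d18:1) libraries. These values overlapped, with a low value in control replicate 2, and gave 0.20 ± 0.078 (edgeR adjusted p = 0.114).

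Non-overlapping groups were rare among the members. In 3 members every So(d18:1) library was above every control library, against 7.14% of all tested genes, and in 1 every So(d18:1) library was below, against 7.87%. The 3 were Ndufa8, Atp5g2 and Ndufv3. Ndufv3, an accessory subunit bound to the flavoprotein part of complex I, was at 46.5, 43.9, 45.4 and 44.7 CPM in control and 46.5, 52.6, 47.9 and 49.6 CPM in So(d18:1) libraries. Its first control and first So(d18:1) library could hardly be separated, and the log2 fold change was 0.12 ± 0.054 (edgeR adjusted p = 0.159). Ndufv3 and the members Ndufv1, Ndufaf3, Ndufaf5 and Atp5b were picked for description after their values were seen.

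The 7 core subunits of complex I, which hold the path of electrons from NADH to ubiquinone, ranged in log2 fold change from -0.03 (Ndufs7) to 0.13 (Ndufv1). Ndufv1, which binds NADH and the flavin cofactor, was at 50.2, 52.0, 55.4 and 47.8 CPM in control and 54.7, 56.9, 55.1 and 58.4 CPM in So(d18:1) libraries. Control replicate 3 lay among the So(d18:1) values, and the edgeR adjusted p was 0.138. The largest subunit of the peripheral arm, Ndufs1, gave 0.01 ± 0.058, with a 95% interval of -0.12 to 0.13.

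The assembly factors of complex I had low levels and wide intervals. Ndufaf5, a modifying enzyme that acts on the core subunit Ndufs7 during assembly, was at 4.43, 5.09, 5.99 and 5.16 CPM in control and 4.26, 4.39, 3.65 and 4.38 CPM in So(d18:1) libraries. It was the single member whose So(d18:1) libraries all lay below control, by a narrow gap. On the log2 scale this was -0.31 ± 0.14 (edgeR adjusted p = 0.175). Ndufaf3, which acts in early assembly steps together with Ndufaf4, was at 7.22, 7.05, 8.30 and 6.48 CPM in control and 8.64, 8.01, 9.22 and 9.08 CPM in So(d18:1) libraries. That gave 0.27 ± 0.11 (edgeR adjusted p = 0.139), in a gene that overlaps Impdh2 on the other strand. The most expressed assembly factor, Ndufaf1, stood at 8.30 RPKM.

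Complex II, the succinate dehydrogenase that also works in the TCA cycle, had a median standard error of 0.048 log2 units. Sdhb (ENSMUSG00000009863, chr4:140961203-140979193, plus strand), which carries the iron-sulfur clusters, was at 73.0, 73.9, 74.3 and 75.3 CPM in control and 74.8, 81.7, 76.5 and 81.0 CPM in So(d18:1) libraries. Sdhd (ENSMUSG00000000171, chr9:50596357-50603812, minus strand) was at 89.2, 96.2, 92.2 and 88.3 CPM against 92.1, 96.2, 90.8 and 105 CPM. Both overlapped between the groups, with log2 fold changes of 0.08 ± 0.046 and 0.07 ± 0.051 (edgeR adjusted p = 0.289 and 0.433). Sdha and Sdhc gave -0.02 ± 0.040 and 0.04 ± 0.055. All 4 intervals lay within 1.25-fold.

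In complex III, Uqcrq (ENSMUSG00000044894, chr11:53427922-53430831, minus strand), a small accessory subunit, was at 24.3, 24.1, 24.9 and 26.1 CPM in control and 29.7, 29.1, 23.5 and 31.3 CPM in So(d18:1) libraries. So(d18:1) replicate 3 lay below all controls and the other 3 lay above them. The difference was 0.20 ± 0.077 log2 units (edgeR adjusted p = 0.126), and without So(d18:1) replicate 3 it was 0.28 with an adjusted p of 0.0161. Uqcrfs1 (ENSMUSG00000038462, chr13:30540308-30545362, minus strand), the Rieske iron-sulfur protein that passes electrons to cytochrome c1, was at 69.8, 74.0, 74.1 and 69.1 CPM against 72.8, 76.4, 76.5 and 82.9 CPM. It gave 0.11 ± 0.050 (edgeR adjusted p = 0.203). Uqcrh (ENSMUSG00000063882, chr4:116066965-116075071, minus strand), the most expressed member of the complex, was at 112, 109, 120 and 113 CPM against 108, 110, 107 and 117 CPM. Its fold change of -0.03 ± 0.046 had a 95% interval of -0.13 to 0.06, and it was the only complex III gene below 0.

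In complex IV, Cox6a1 (ENSMUSG00000041697, chr5:115345642-115348981, minus strand) had the smallest p, with 50.1, 48.5, 54.5 and 54.6 CPM in control and 54.3, 60.7, 52.8 and 62.9 CPM in So(d18:1) libraries. Replicates 2 and 4 of So(d18:1) were above all controls and the other 2 were not. In log2 units the difference was 0.15 ± 0.062 (edgeR adjusted p = 0.129). Cox4i1 (ENSMUSG00000031818, chr8:120668222-120674207, plus strand) was at 236, 230, 247 and 237 CPM against 229, 253, 232 and 267 CPM, and gave 0.05 ± 0.049 (edgeR adjusted p = 0.609). It shares an exon stretch with Emc8 on the other strand. Cox5a and Cox5b, which surround the catalytic core, gave 0.00 ± 0.069 and 0.01 ± 0.058 after rounding.

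In complex V, Atp5d (ENSMUSG00000003072, chr10:80138632-80145818, plus strand), the delta subunit of the rotating shaft, was at 92.4, 89.3, 95.1 and 97.5 CPM in control and 100, 106, 95.1 and 109 CPM in So(d18:1) libraries. So(d18:1) replicate 3 lay among the controls and the other 3 lay above them. The log2 fold change was 0.14 ± 0.050 (edgeR adjusted p = 0.0959), and without So(d18:1) replicate 3 it was 0.17 with an adjusted p of 0.0429. Atp5g2 (ENSMUSG00000062683, chr15:102662864-102672352, minus strand) was at 85.7, 86.6, 83.9 and 86.8 CPM against 88.0, 95.9, 89.9 and 96.6 CPM. The groups did not overlap, and the log2 fold change was 0.11 ± 0.046 (edgeR adjusted p = 0.137). Of its transcript, 38.4% is shared with the processed copy Gm10175, so its counts are uncertain.

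The 2 main subunits of the catalytic head had standard errors below the members' median of 0.063. Atp5a1 was at 442, 443, 444 and 453 CPM in control and 450, 488, 453 and 504 CPM in So(d18:1) libraries. Atp5b, the beta subunit where ATP is made, was at 312, 302, 328 and 320 CPM against 313, 357, 335 and 355 CPM. In both genes the So(d18:1) replicates 2 and 4 were highest and replicate 1 lay within the control range. Their log2 fold changes were 0.09 ± 0.044 and 0.11 ± 0.047 (edgeR adjusted p = 0.228 and 0.17). Over the 13 catalytic and central subunits of complexes II to V, values ranged from -0.02 (Sdha) to 0.14 (Atp5d).

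Reads can be split between a gene and its near-identical copies, or between genes that overlap. Of the 88 tested members, 36 shared no 50-base word with a transcript of another gene, Ndufa8, Uqcrq, Uqcrfs1, Sdhb, Sdhd and Cox7a1 among them. In 8, over 20% of the transcript was shared: Ndufaf2 (64.1%), Atp5o (41.6%), Atp5g2 (38.4%), Ndufb6 (31.6%), Ndufa13 (28.5%), Uqcrb (25.5%), Cox7c (22.1%) and Ndufs5 (21.7%). In Ndufaf2, Atp5o, Ndufb6 and Ndufa13 the gene that shares most of it overlaps on the opposite strand, and in the remaining 4 it is a processed copy elsewhere in the genome. The values of all 8 are uncertain.

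The subunits encoded by mitochondrial DNA, which the symbol rule also leaves out, belong to complexes I, III, IV and V. Of these 13 genes, 0 passed edgeR's test after adjustment, and 4 had an unadjusted p under 0.05, all higher. DESeq2, limma-voom and edgeR's exact test also called 0. mt-Cytb, the cytochrome b of complex III, was at 2377, 2528, 2152 and 2256 CPM in control and 2484, 2650, 2478 and 2646 CPM in So(d18:1) libraries. Control replicate 2 lay among the So(d18:1) values, and the log2 fold change was 0.14 ± 0.049 (edgeR adjusted p = 0.0865). mt-Nd6 and mt-Nd1, subunits of complex I, gave 0.15 ± 0.052 and 0.13 ± 0.047 (edgeR adjusted p = 0.0911 and 0.0981). In 5 of the 13 (mt-Atp6, mt-Co2, mt-Co3, mt-Nd3 and mt-Nd4l) at least 98.0% of the transcript is shared with copies in other annotated genes, and their values are uncertain. Of these 5, 1 lay above 0, and the lowest was -0.29 (mt-Nd3). The other 8 ranged from 0.05 to 0.29, and among them mt-Nd4 and mt-Co1 also share 62.2% and 51.1% of their transcripts with such copies and are uncertain too. mt-Nd5 and mt-Nd6 overlap at their ends on opposite strands. By mean log2 CPM the 13 were lowest in control replicate 3 and did not follow the ordering of the nuclear subunits. That mean gives each gene the same weight, the uncertain ones included. By their share of all counts, So(d18:1) replicates 2 and 4 were highest (2.04% and 2.01%), and the other libraries lay between 1.73% and 1.97%.

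Enzymes that feed electrons and substrates to the chain are given for comparison. Of 26 tested genes of the TCA cycle and of pyruvate entry, 5 were higher (against 3.87% of all tested genes) and 0 lower. Fh1, the fumarase that acts directly after succinate dehydrogenase, was at 54.1, 54.4, 48.1 and 52.0 CPM in control and 61.2, 69.3, 60.6 and 66.3 CPM in So(d18:1) libraries. Pdk3, a kinase that switches off pyruvate dehydrogenase, was at 17.1, 18.2, 22.8 and 19.2 CPM against 26.9, 25.6, 25.7 and 26.6 CPM. Neither gene overlapped between the groups, and both rose, by 0.31 ± 0.057 and 0.44 ± 0.080 log2 units (edgeR adjusted p = 0.00133 and 0.00118), in 8 of 8 fits with 1 library left out. Cs, the citrate synthase often used as a measure of mitochondrial mass, rose by 0.16 ± 0.041 (0.018), Pdk2, a second kinase, by 0.24 ± 0.070 (0.0373) and Pcx, pyruvate carboxylase, by 0.63 ± 0.18 (0.0366), with edgeR adjusted p in brackets. Cs lost its call without control replicate 4 (adjusted p = 0.0655) or So(d18:1) replicate 4, Pdk2 without control replicates 3 or 4 or So(d18:1) replicates 2 or 4 (up to 0.143), and Pcx in all fits but those without control replicate 2 or So(d18:1) replicate 4 (up to 0.162). Without So(d18:1) replicates 2 and 4 together, the edgeR adjusted p was 0.0245 for Pdk3 and 0.0710 for Fh1. In that fit it was 0.149 for Cs, 0.392 for Pdk2 and 0.215 for Pcx. The genes that rose act in different directions, since Pdk2 and Pdk3 restrain pyruvate oxidation and Cs, Fh1 and Pcx are enzymes of the cycle and its refilling.

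**Figure D5:**
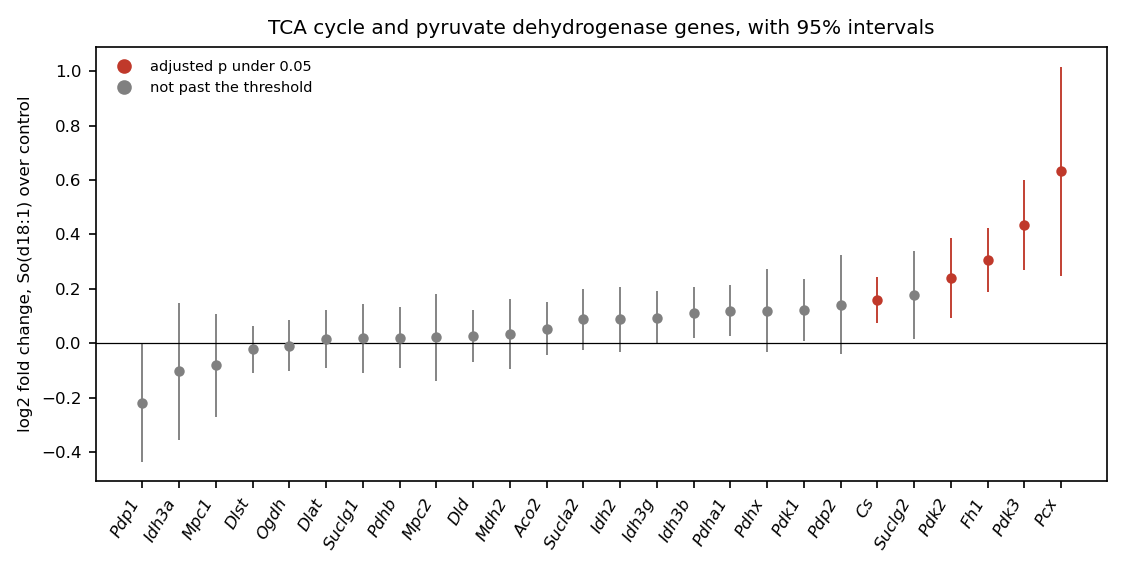
Log2 fold change (So(d18:1) over control) with 95% intervals for the 26 tested genes of the TCA cycle and pyruvate entry, ordered by value. The 5 genes with an adjusted p under 0.05 are filled red and lie between 0.16 (Cs) and 0.63 (Pcx).

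Genes that build or serve the chain are given next, beside the 3.87% of all tested genes that were higher and the 5.07% that were lower. Of 40 other assembly factors 1 was higher, Coa5, a complex IV assembly factor (0.14 ± 0.043, edgeR adjusted p = 0.0394). Of 22 genes of electron carriers and ubiquinone synthesis 1 was higher, Coq8a, an atypical kinase of ubiquinone synthesis (0.32 ± 0.084, edgeR adjusted p = 0.0205), which overlaps Cdc42bpa. Of 11 carriers and channels 1 was higher, Vdac1, the main outer membrane channel (0.15 ± 0.042, 0.0235), and 1 was lower, Slc25a13, an aspartate and glutamate carrier (-0.22 ± 0.068, 0.0432). None of the 4 calls held in all 8 fits with 1 library left out: Coa5 passed in 2 of them, Coq8a in 5, Vdac1 in 4 and Slc25a13 in 0. The highest adjusted p were 0.119 for Coa5 without control replicate 3 and 0.0750 for Coq8a without So(d18:1) replicate 4. For Vdac1 it was 0.0713 without So(d18:1) replicate 4, and for Slc25a13 0.117 without So(d18:1) replicate 1. Without So(d18:1) replicates 2 and 4 together, the edgeR adjusted p was 0.307 for Coa5, 0.203 for Coq8a, 0.259 for Vdac1 and 0.0485 for Slc25a13.

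Among 18 regulators of mitochondrial biogenesis, 0 were higher and 1 was lower, against 3.87% and 5.07% of all tested genes. Pprc1, a coactivator of the PGC-1 family, fell from 27.3, 26.1, 40.4 and 34.4 CPM in control to 22.4, 17.3, 22.2 and 20.6 CPM with So(d18:1), which is -0.64 ± 0.15 on the log2 scale (edgeR adjusted p = 0.0324). Its groups did not overlap, and it overlaps Ldb1 on the other strand. It passed in 3 of 8 fits with 1 library left out, with an adjusted p of up to 0.109 without So(d18:1) replicate 4. Without So(d18:1) replicates 2 and 4 together, its edgeR adjusted p was 0.262. Transcripts of the factors whose motifs were searched above gave 0.00 ± 0.063 for Nrf1, 0.10 ± 0.044 for Gabpa and -0.04 ± 0.041 for Yy1 (edgeR adjusted p = 0.977, 0.187 and 0.632). Ppargc1a, the best-known coactivator of the family, had 0 to 6 counts per library and was not tested.

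Lists for the respiratory response to low oxygen (6 tested genes, Pdk1, Bnip3 and Lonp1 among them) and for cristae and supercomplexes (14 tested) held 0 calls by edgeR, with 1 gene each at an unadjusted p under 0.05. The import translocases (22 tested) held 0 calls, with 2 at an unadjusted p under 0.05. Of the mitochondrial ribosomal proteins 2 of 77 were higher (Mrpl9 and Mrpl45), of the cytosolic ribosomal proteins 1 of 80 (Rps2) and of the proteasome subunits 2 of 39 (Psmb9 and Psmb10), and none was lower in these 3 lists, against 3.87% higher and 5.07% lower among all tested genes.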

How the data were processed

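Polyadenylated RNA of 8 BMDM libraries, 4 per group by the sample titles, was analysed. The authors deposited raw whole-number counts for each Ensembl gene in each library, with a gene length beside them. Per the submitters' processing notes and the study's methods, reads were trimmed with Trim Galore 0.6.7, aligned to mm10 with HISAT2 2.2.1 and counted with featureCounts 2.0.1. The strand setting and the treatment of multi-mapping reads are not given in the sources used here.

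Symbols came from GENCODE release M21 (GRCm38, the build called mm10), which named 52081 of the 55357 identifiers. Counts were tested in R 4.3.3 with edgeR 4.0.16: filterByExpr, TMM scaling and a robust quasi-likelihood F test, adjusted by Benjamini-Hochberg over all 14514 genes tested. Calls are at an adjusted p under 0.05. Standard errors were derived from the F statistic (absolute log2 fold change over its square root). For log2 CPM the prior count was 2, and RPKM used the deposited length. Depth was 17748397 to 26088609 counts per library, and 4 libraries per group limit the precision: with 4 against 4, the smallest two-sided p of an exact permutation test is 0.0286. Replicates of a group differed by more than counting noise, with a chi-square per gene of 2.75 to 12.1.

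The members, gene lists and tests were chosen with earlier results of these data known. In each of complexes I to V the 2 members with the smallest p and the member with the highest level per length were named, along with core and catalytic subunits, isoforms, members not tested, and up to 5 called genes of each other list. The result of 1 of these genes is not reported here. Other named genes were picked after their values were seen. The processing was varied by upper quartile scaling, size factors of DESeq2, total counts alone, TMM without mitochondrially encoded genes, no filter, a minimum of 10 counts in every library, a replicate block, DESeq2 1.42.0, limma-voom (limma 3.58.1), edgeR's exact test and each library left out. Leaving out So(d18:1) replicates 2 and 4 together was added after seeing the data. A planned comparison of isoform proteins was not made. Sequence shared between genes was measured on transcripts cut into words of 50 bases, as the percent that also occur in another gene. Python 3.11.15 and matplotlib 3.10.9 drew the figures.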

Additional observations from a re-analysis of the deposited data

Results flagged for a closer look

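Among 100 groups of 4 libraries examined, 4 held a library far from the other 3, where chance alone gives about 5 (1 in 20). In the So(d18:1) group, Ndufaf5 was at 1.90 log2 CPM in replicate 3 and at 2.12 to 2.16 in the others, so that the gap was 0.842 of the group's range. Coq8a was at 4.64 log2 CPM in So(d18:1) replicate 4 and at 4.51 to 4.52 in the others (0.927 of the range). In the control group, Cs was at 7.16 log2 CPM in replicate 4 and at 7.21 to 7.22 in the others (0.878), and mt-Nd3 was at 2.73 log2 CPM in replicate 3 and at 2.26 to 2.33 in the others (0.854).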

How the results depend on the processing

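Under 10 other choices of scaling, filter, test or block, 0 members were called in either direction or by the study's rule, and the members' median log2 fold change stayed between 0.046 and 0.064. With 1 library left out the count of members higher ran from 0 to 2 (Uqcrq and Atp5d, without So(d18:1) replicate 3) and the median from 0.021 to 0.089. Without So(d18:1) replicates 2 and 4 the median was -0.028, and Cox4i1 was among the members that changed sign, to -0.044 (edgeR adjusted p = 0.727). Of the mitochondrially encoded genes, 3 were called without a filter on low counts (mt-Nd1, mt-Nd6 and mt-Cytb), 2 with the replicate block (mt-Nd6 and mt-Cytb), and 0 to 3 with 1 library left out (3 without control replicate 2). Among other genes called, Coa5 and Pdk2 did not pass with upper quartile scaling (adjusted p = 0.0658 and 0.0516), nor Slc25a13 without a filter (0.0712). The cause was not tested. Deviations of libraries with the same replicate number correlated at -0.0035, 0.10, 0.033 and 0.0091, not every library correlated best with its own number, and the number was therefore not taken as a pairing. The replicate block raised the genes called from 1298 to 1784, with 0 members among them. For 70 members the 95% interval, each gene taken alone and without allowance for the number of genes, lay within 1.25-fold. The 6 members not tested had too few counts to show a difference.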

Other observations

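The ribosomal RNAs of the mitochondrion, which are not subunits of the chain, were lower, while 9 of the 13 mitochondrially encoded messenger RNAs lay above 0. Of those 13, 0 passed the test, and the values of several are uncertain. The ribosomal RNAs were looked at after their values were seen, and sequence they share with copies elsewhere was not measured. In these polyadenylated libraries mt-Rnr1, the RNA of the small mitochondrial ribosomal subunit, fell from a mean of 636 CPM in control to 509 CPM in So(d18:1) libraries (log2 fold change -0.32 ± 0.071 SE, edgeR adjusted p = 0.0133). mt-Rnr2, that of the large subunit, fell from 1089 to 953 CPM (-0.19 ± 0.048, edgeR adjusted p = 0.0141). In both, every So(d18:1) library lay below every control library, as in 7.87% of all tested genes.

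The spread of the members between libraries also differed between the groups. The SD of log2 CPM was larger among the 4 So(d18:1) than among the 4 control libraries in 59 of the 88 members (67.0%), compared with 51.5% of all tested genes. All members were measured in the same libraries, where their mean stood higher in So(d18:1) replicates 2 and 4 than in 1 and 3. The 59 are therefore not independent observations. The median SD of the members was 0.077 in control and 0.10 in So(d18:1) libraries, while that of all tested genes was 0.12 and 0.11.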
